A study of Mus musculus with 35 samples.

Results

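The core loop of the circadian clock was followed here gene by gene in interscapular brown adipose tissue (iBAT), the heat-producing fat depot between the shoulder blades, during cold exposure. The 10 genes are Arntl (which encodes BMAL1), Clock, Npas2, Per1, Per2, Per3, Cry1, Cry2, Nr1d1 (REV-ERBα) and Nr1d2 (REV-ERBβ). They were chosen by name as the parts of the textbook loop, with earlier results of these data known, and each matched 1 of the 55421 gene identifiers in the count table. RNA came from 35 male C57BL/6J mice aged 9 to 10 weeks, 5 in each of 7 groups. One group stayed at a colony room temperature of 24 °C, and the others spent 6 h or 1, 2, 3, 4 or 5 days in an incubator at 6 °C. In the incubator every mouse was alone in a static cage that held no nesting material, so cold and housing cannot be told apart. No genotype or drug differed, and lights followed a 12:12 cycle.

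The hour of day at which tissue was taken is not given in the sources used here. Transcripts of clock genes rise and fall over each day, so for these genes in particular a difference between groups that were collected at different hours cannot be told apart from a difference between durations of cold. This holds most plainly for the 6 h group against any group defined by whole days. Each library came from a separate mouse, so the p-values below weigh group differences against the spread between mice. They do not address variation between collection sessions, which the sources used here do not describe. In whole tissue, fewer cells of a type and less RNA per cell cannot be told apart either.

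As background, the clock of mammalian cells is a loop of transcription factors. CLOCK, or its paralog NPAS2, pairs with BMAL1 and binds E-box elements at the Per, Cry and Nr1d genes, among many others. PER and CRY proteins accumulate, enter the nucleus and repress that pair, while REV-ERBα and REV-ERBβ repress Arntl through a separate element (RORE) that ROR receptors activate. The PAR bZIP factors, such as DBP, act at D-box elements, and Per1 and Per2 also respond to acute signals through cAMP and glucocorticoids. In brown fat, REV-ERBα is known as a repressor of Ucp1 and of heat production.

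Some elements of the loop can be seen in the promoters of some members, and the short windows below are shown because they carry the letters through which the textbook loop connects its genes. They were read from RefSeq promoter windows of the GRCm38.p6 build, which run from 250 bases before to 50 bases after an annotated start site. Of the 10 genes, 9 had 1 or more such windows, 13 in all, and Per2 was not in the table. The search covered both strands for the E-box CACGTG, the RORE letters TAGGTCA and TGGGTCA, the D-box letters TTATGTAA and TTACGTAA, and the cAMP response element TGACGTCA. Capitals mark the matched letters, with 11 bases on each side, written 5′ to 3′ on the strand of the gene.
Arntl RORE: aaggcagaaagTAGGTCAgggacggaggt
Per1 E-box: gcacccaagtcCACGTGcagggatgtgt
Cry1 E-box: gtgccggtggtCACGTGgggtgcatgcc
Per3 D-box, distal: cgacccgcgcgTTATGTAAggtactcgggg
Per3 D-box, proximal: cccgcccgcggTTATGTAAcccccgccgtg

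The Arntl window lies on the plus strand at chr7:113207530-113207558, with its match 30 to 36 bases after the start site. The Per1 window is at chr11:69098772-69098799 on the plus strand, and its E-box begins at base −166 from a start site that lies inside the annotated gene, downstream of the gene's first base given below. The Cry1 E-box, on the minus strand at chr10:85185098-85185125, begins at base −60. Both Per3 matches are on the minus strand, at chr4:151044852-151044881 and chr4:151044805-151044834, and begin at bases −205 and −158. Among all 32851 promoter windows of the table, 7.15% held this E-box, 6.45% a RORE, 1.06% a D-box and 1.79% the cAMP response element, which none of the members' windows held. Among the members only Per1 and Cry1 held the E-box, only Arntl a RORE and only Per3 a D-box. The windows of Clock, Npas2, Cry2, Nr1d1 and Nr1d2 held none of the searched letters. Sequence outside the windows was not searched. A match describes the letters in these windows and is not evidence of binding in these mice.

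Libraries were made from the 3′ ends of polyadenylated transcripts and held between 3846016 and 6047247 counts per mouse. Levels are given as CPM (counts per 1000000 counts of a library), scaled by TMM factors over all libraries, and are compared between groups for one gene, not between genes. Of the 10 members, 9 could be tested with edgeR's quasi-likelihood test. Npas2 was too low, with 0 to 9 counts in a library, 78 counts in total and 10 libraries at 0. Arntl passed the filter on low counts through the cold-exposed mice, since controls held only 6 to 12 counts of it, but no library was at 0. A gene is said to have risen or fallen where its Benjamini-Hochberg adjusted p over all genes tested was below 0.05.

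After 6 h of cold, 5 of the 9 tested members were higher than at room temperature (Arntl, Clock, Cry1, Per1 and Per2) and 3 were lower (Nr1d1, Per3 and Nr1d2). The background was wide: 42.5% of all genes tested were called in that comparison, 21.5% higher and 21% lower. One day of cold left 3 members higher and 4 lower, beside 36.7% of all genes (18.9% higher and 17.8% lower). For 2 days the members numbered 3 higher and 5 lower (31.2% of all genes, 16.4% and 14.7%), and for 3 days 2 higher and 4 lower (33.8%, 18.3% and 15.5%). The 4-day mice gave 2 and 4 (38%, 19.4% and 18.6%), and the 5-day mice 3 and 6 (38.8%, 20.2% and 18.6%). Members whose 5 cold values did not overlap the 5 control values numbered 8, 7, 6, 4, 4 and 7 from 6 h to 5 days, beside 28.5%, 24.6%, 20.1%, 21.7%, 24.9% and 24.8% of all genes. All 6 comparisons use the same 5 controls and are not independent. The median absolute log2 fold change of the tested members was 1.26 after 6 h, 0.63 after 4 days and 1.23 after 5 days. Scaled by library size only, the median log2 fold change over all genes moved to between −0.15 after 3 days and −0.25 after 5 days. The calls made that way were higher genes in 28.3%, 26.2%, 25.1%, 35.5%, 35% and 26.3% of cases from 6 h to 5 days, against 50.6%, 51.4%, 52.8%, 54.2%, 51% and 52% with TMM factors.

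**Figure D1:**
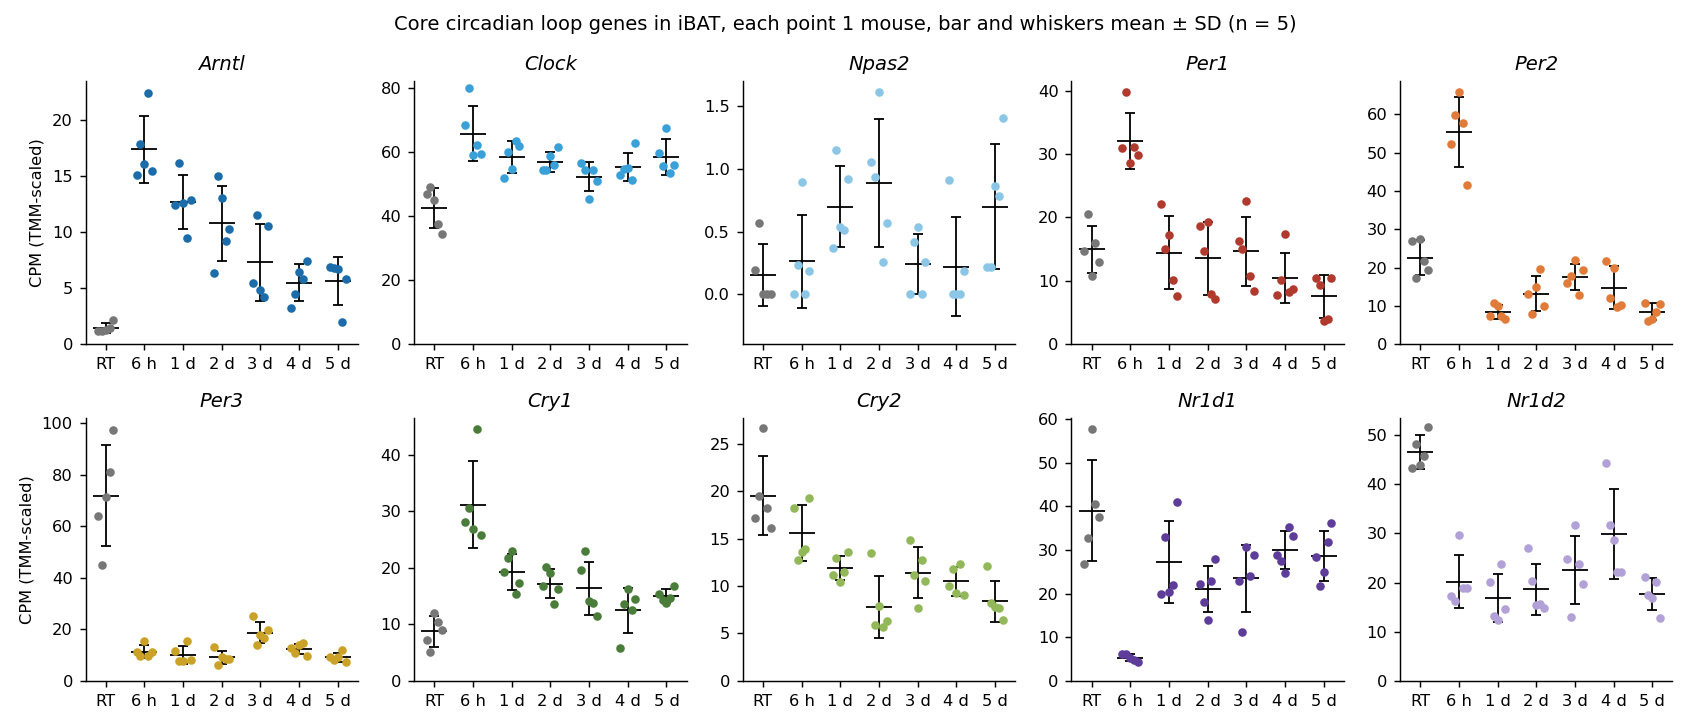
CPM of each of the 10 genes (vertical axes, linear) in the 7 groups (RT, room temperature, then 6 h to 5 days of cold). Each point is 1 mouse, and bars with whiskers give the mean ± SD of 5 mice. Arntl lies above the controls in every cold mouse but 1 (after 5 days, at 1.96), Per3 lies below them in every cold mouse, and Nr1d1 is lowest after 6 h.

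Arntl, the partner that every activator complex of the loop requires, showed the largest fitted rise among the 9 tested members at each duration. Its gene (ENSMUSG00000055116) is on chromosome 7 from 113207465 to 113314126 on the plus strand of GRCm38. The 5 controls stood at 1.14, 1.14, 1.31, 1.47 and 2.16 CPM. After 6 h the mice stood at 15.1, 17.9, 16.1, 22.4 and 15.5 CPM. Every mouse was thus far above every control, a mean of 17.4 ± 3.01 CPM (SD, n = 5) against 1.44 ± 0.42 CPM. The log2 fold change was 3.53 (standard error, SE, 0.22, adjusted p = 1.6e-09 by edgeR), or 11.5-fold. With 6 to 12 counts per control, the size of this fold rests on few reads.

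From that height the Arntl level was lower in each longer group up to 4 days. Over 1, 2, 3, 4 and 5 days the means were 12.7 ± 2.38, 10.8 ± 3.36, 7.32 ± 3.45, 5.49 ± 1.64 and 5.64 ± 2.11 CPM. The log2 fold changes against controls went from 3.09 after 1 day through 2.85 and 2.29 to 1.88 after 4 days and 1.91 after 5 days, each past the threshold. Neighbouring cold groups overlapped, and no single step was past the threshold, but the whole-day groups differed among themselves (edgeR F-test over 1 to 5 days, F = 7.09, adjusted p = 0.0063). The lowest cold mouse of all, at 1.96 CPM after 5 days, lay below the highest control at 2.16 CPM. The other 4 mice of that group stood between 5.83 and 6.91 CPM. A 33-base stretch of the gene's exons is shared with the antisense Gm45355, which had 1 count in the whole series.

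Clock, the DNA-binding partner of BMAL1 (ENSMUSG00000029238, chromosome 5, 76209868 to 76304792, minus strand), moved much less than Arntl. Controls stood at 46.9, 49.2, 45.0, 37.7 and 34.5 CPM, and mice after 6 h at 68.3, 79.9, 59.2, 62.1 and 59.4 CPM. Those groups did not overlap, and the log2 fold change was 0.60 (SE 0.12, adjusted p = 0.00065 by edgeR). Values of 0.44, 0.40, 0.35 and 0.43 after 1, 2, 4 and 5 days were all past the threshold, and that of 0.29 after 3 days was not (adjusted p = 0.065). Clock also varied least between mice of 1 group, with a pooled SD of 0.14 on the log2 scale against 0.33 for the median gene. Scaling by library size only ended its calls after 1, 2, 4 and 5 days, when the log2 fold changes were 0.20 to 0.22 after 1, 4 and 5 days and 0.18 after 2 days. After 4 days the call was also lost without control replicate 4 (0.31) or control replicate 5 (0.29), while after 3 days it was gained without control replicate 2 (0.34) or cold replicate 3 (0.34).

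Npas2, which can stand in for CLOCK (ENSMUSG00000026077, chromosome 1, 39193731 to 39363236, plus strand), was close to the limit of detection throughout. Controls held 1, 3, 0, 0 and 0 counts. After 2 days, where its mean was highest at 0.887 ± 0.514 CPM, mice held 7, 4, 9, 1 and 2 counts, so the groups overlapped. Exact permutation of log2 CPM between the groups, two-sided, gave p = 0.0238 there and p = 0.0317 after 1 day, or 0.0952 for both after adjustment over 6 durations. At this depth no difference in Npas2 could be detected after correction at any duration, and its fold changes are not given.

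The Per genes, which encode the PERIOD repressors, did not move together. After 6 h Per1 and Per2 were higher and Per3 was lower, and from 1 day on the 3 genes took separate courses. Per1 (ENSMUSG00000020893) lies on chromosome 11 from 69095217 to 69109960 on the plus strand. Controls stood at 14.7, 20.6, 10.7, 16.0 and 12.9 CPM, and mice after 6 h at 31.0, 39.7, 28.6, 31.2 and 29.9 CPM. The rise was complete in the sense that no mouse overlapped the controls (log2 fold change 1.06, SE 0.15, adjusted p = 2.8e-05 by edgeR).

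After 1 day Per1 was spread around the control level, at 22.1, 15.0, 17.3, 10.2 and 7.59 CPM. Its log2 fold changes were −0.06, −0.13 and −0.03 after 1, 2 and 3 days, none past the threshold, and −0.54 after 4 days (adjusted p = 0.072). Per1 fell only in the last group, where mice stood at 10.4, 9.27, 3.66, 3.92 and 10.5 CPM. That log2 fold change was −1.02 (SE 0.27, adjusted p = 0.0056 by edgeR). Of the tested members Per1 had the widest spread between mice, a pooled SD of 0.53 on the log2 scale. Without cold replicate 3 or control replicate 3, the value after 4 days became −0.80 or −0.63 and passed the threshold.

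Per2 (ENSMUSG00000055866, chromosome 1, 91415982 to 91459324, minus strand) was above the controls after 6 h and below them after 1 day, in every mouse. The controls stood at 26.9, 17.3, 27.5, 21.8 and 19.4 CPM. After 6 h the mice stood at 52.1, 59.7, 65.7, 57.6 and 41.5 CPM, all above the controls. After 1 day they stood at 7.24, 10.8, 9.89, 7.40 and 6.67 CPM, all below the controls. The log2 fold changes against controls were 1.26 (SE 0.14, adjusted p = 1.9e-06 by edgeR) after 6 h and −1.43 (SE 0.17, adjusted p = 8.7e-06) after 1 day.

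Per2 then lay closer to the controls and was low again at the end. Its means over 2, 3, 4 and 5 days were 13.1 ± 4.57, 17.5 ± 3.42, 14.7 ± 5.63 and 8.46 ± 2.18 CPM, against 22.6 ± 4.49 CPM in controls. The log2 fold change was −0.79 after 2 days, −0.37 after 3 days (adjusted p = 0.094), −0.63 after 4 days (adjusted p = 0.029) and −1.43 after 5 days. The whole-day groups differed among themselves (edgeR F-test, F = 7.61, adjusted p = 0.0044). Leaving out any of 5 mice ended the call after 4 days: control replicate 1 (−0.56) or 3 (−0.56), or cold replicate 2 (−0.55), 4 (−0.50) or 5 (−0.51). After 3 days a call was gained without cold replicate 3 (−0.47).

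Per3, often described as the least essential of the period genes for rhythm itself, had the largest fall among the tested members at each of the 5 whole-day durations. It lies on chromosome 4 from 151003652 to 151044665 on the minus strand (ENSMUSG00000028957), and its promoter holds the D-box pair shown above. Controls stood at 63.9, 45.0, 71.4, 81.2 and 97.5 CPM, and mice after 6 h at 11.2, 9.52, 15.4, 9.68 and 11.1 CPM. The highest mouse of any cold group, at 25.2 CPM after 3 days, was still below the lowest control.

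The log2 fold change of Per3 was −2.68 after 6 h (SE 0.19, adjusted p = 8e-09 by edgeR), −2.85 after 1 day and −2.96 after 2 days. Days 3, 4 and 5 gave −1.95, −2.56 and −2.98, and the mean of the last group was 9.22 ± 1.71 CPM, against 71.8 ± 19.6 CPM in controls. The cold groups were not all alike: over 1 to 5 days the F-test gave F = 9.07 and an adjusted p = 0.0017. The mice after 3 days (25.2, 14.1, 18.0, 16.8 and 19.8 CPM) lay above those after 2 days (13.3, 6.08, 9.32, 8.47 and 8.56 CPM) with no overlap, which was so for 1.53% of all genes in that step.

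**Figure D2:**
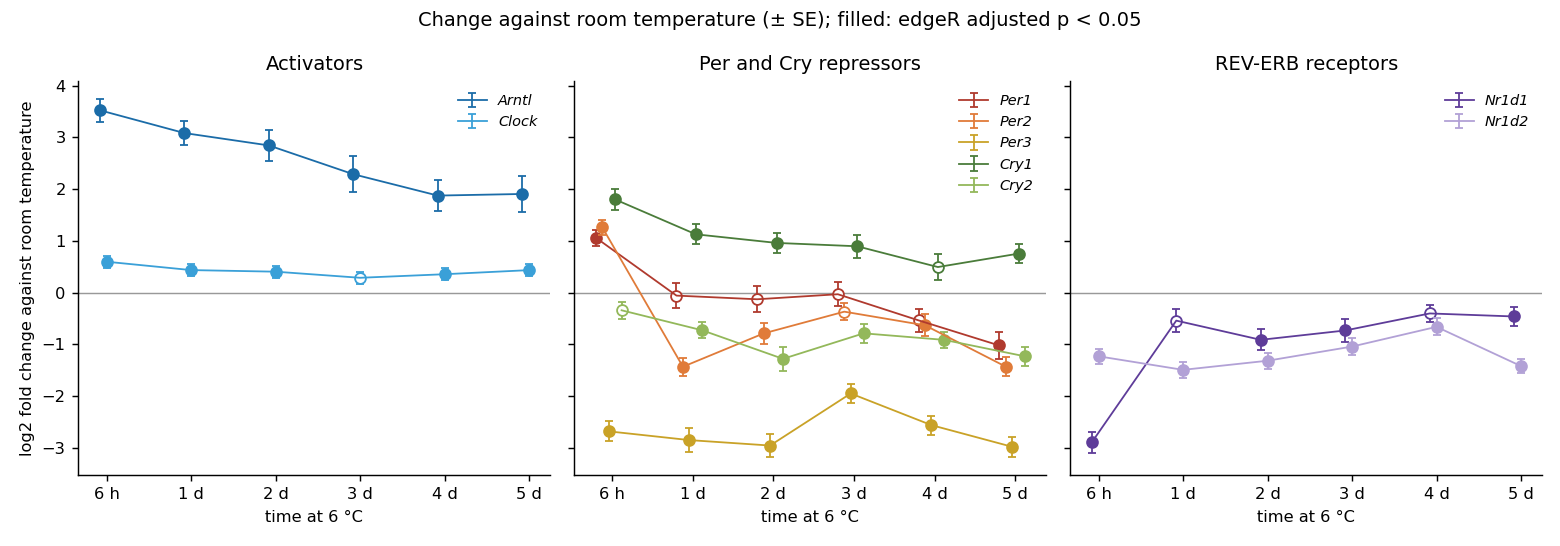
Log2 fold change against room temperature (vertical axis) at each duration of cold (horizontal axis) for the 9 tested genes, grouped by role, with bars of ± 1 standard error. Filled points passed edgeR's adjusted p of 0.05. Arntl declines from 3.53 to about 1.9, Per3 stays at −1.95 or lower, and Per2 and Nr1d1 change most between 6 h and 1 day.

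The CRY repressors moved in opposite directions. Cry1 (ENSMUSG00000020038, chromosome 10, 85131700 to 85185064, minus strand) had controls at 7.24, 5.15, 12.0, 10.4 and 8.98 CPM. After 6 h it stood at 28.2, 30.7, 26.8, 44.6 and 25.9 CPM, all above the controls (3.48-fold, with an SE of 0.20 on the log2 scale, adjusted p = 1.1e-06 by edgeR). The means that followed were 19.3 ± 3.15, 17.2 ± 2.57, 16.4 ± 4.7, 12.5 ± 3.98 and 15 ± 1.19 CPM after 1 to 5 days. Its log2 fold changes were 1.13, 0.96 and 0.90 after 1, 2 and 3 days and 0.75 after 5 days, each past the threshold. After 4 days the value was 0.49 (adjusted p = 0.14), and 0.68, past the threshold, without cold replicate 1, whose level of 5.82 CPM was among the controls.

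Cry2 (ENSMUSG00000068742, chromosome 2, 92403646 to 92434043, minus strand) had no called change after 6 h and was lower at every later duration. Controls stood at 17.2, 19.4, 26.6, 18.3 and 16.2 CPM, and mice after 6 h at 18.3, 12.8, 13.6, 13.9 and 19.3 CPM, which overlapped them. The log2 fold change was −0.34 (SE 0.16, adjusted p = 0.093 by edgeR) and passed the threshold without cold replicate 5 (−0.44) or with library size only (−0.53). After 1 day mice stood at 11.1, 12.9, 10.4, 11.5 and 13.6 CPM, all below the controls. The later log2 fold changes were −0.73, −1.28, −0.79, −0.92 and −1.23 after 1 to 5 days. A noncoding gene on the other strand, D930015M05Rik, shares 295 exonic bases with Cry2 but had only 52 counts in all libraries, against 2102 for Cry2.

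The receptors REV-ERBα and REV-ERBβ, which repress Arntl, were both lower after 6 h, Nr1d1 more than Nr1d2. Nr1d1 (ENSMUSG00000020889, chromosome 11, 98767932 to 98775333, minus strand) had controls at 26.7, 32.8, 57.6, 40.4 and 37.5 CPM. After 6 h it stood at 6.26, 6.27, 5.14, 4.72 and 4.37 CPM. All 5 mice were below every control, a log2 difference of −2.90 (SE 0.20, adjusted p = 5.5e-09 by edgeR), or 7.45-fold.

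After 1 day of cold Nr1d1 stood at 19.9, 33.0, 20.3, 21.9 and 41.0 CPM, with 3 of 5 mice below every control. Over 1, 2, 3, 4 and 5 days the means were 27.2 ± 9.38, 21 ± 5.28, 23.5 ± 7.64, 29.9 ± 4.3 and 28.6 ± 5.65 CPM, against 39 ± 11.6 CPM in controls. Log2 fold changes were −0.54 after 1 day (adjusted p = 0.059), −0.91 after 2 days, −0.73 after 3 days, −0.40 after 4 days (adjusted p = 0.064) and −0.46 after 5 days (adjusted p = 0.046). These smaller differences depended on single mice and settings. After 1 day the difference passed the threshold with library size only (−0.76), without a filter (−0.52) and with all 7 groups in 1 fit (−0.54). That of day 5 was lost with DESeq2 (−0.45), with all 7 groups in 1 fit (−0.46), and when any of 7 mice was left out: control replicates 3 (−0.29), 4 (−0.45) or 5 (−0.47), or cold replicates 1 (−0.45), 2 (−0.37), 3 (−0.41) or 4 (−0.50). After 3 days it was lost without control replicate 3 (−0.56). Calls were gained without control replicate 1 after 1 day (−0.65) and 4 days (−0.51), and without cold replicate 5 after 1 day (−0.73).

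The 3′ part of Nr1d1 lies opposite the end of Thra, the gene of thyroid hormone receptor alpha, and their annotated exons share 263 bases on opposite strands. The shared stretch runs from 98768157 to 98768419, near the 3′ end of Nr1d1 at 98767932, and libraries were made from 3′ ends. The share of Nr1d1 reads that fall there was not measured. Thra held 14537 counts and Nr1d1 4336. The kit keeps strand, but the strand setting of the counting is not given in the sources used here, so reads in that stretch cannot be told apart with certainty. Thra fell as well after 6 h, from 116 ± 14.1 to 58 ± 3.07 CPM (log2 fold change −1.03, SE 0.10, adjusted p = 3.3e-07 by edgeR), beside −2.90 for Nr1d1. What the shared stretch adds to either gene was not tested.

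Nr1d2 (ENSMUSG00000021775, chromosome 14, 18204054 to 18239127, minus strand) stayed lower at every duration. Controls were close together at 43.3, 48.2, 43.9, 45.8 and 51.6 CPM. After 6 h mice stood at 17.2, 16.3, 29.7, 18.9 and 18.9 CPM, below all controls (log2 fold change −1.23, SE 0.14, adjusted p = 2.4e-06 by edgeR). Later values were −1.49, −1.32, −1.04, −0.66 and −1.42 after 1 to 5 days, each past the threshold.

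The smallest of those values, after 4 days, came from mice at 44.4, 31.8, 28.8, 22.2 and 22.1 CPM, of which 1 was within the control range. Over 1 to 5 days the F-test gave F = 4.81 and an adjusted p = 0.031. That call was lost with library size only (adjusted p = 0.051) and without any 1 of 5 mice: after 1 day replicate 2 (0.051) or 3 (0.053), and after 4 days replicate 1 (0.13), 2 (0.063) or 3 (0.051). Across the alternatives that left out a mouse, its adjusted p ran from 0.013 to 0.13.

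The step from 6 h to 1 day, which does not involve the controls, was the only one between successive durations in which edgeR called members. Nr1d1 rose by 2.35 on the log2 scale (SE 0.22, adjusted p = 1.9e-06 by edgeR), or 5.08-fold. Per2 fell by 2.71 (SE 0.16, adjusted p = 1.3e-08), Per1 by 1.13 (SE 0.21, adjusted p = 0.0011) and Cry1 by 0.68 (SE 0.16, adjusted p = 0.0073). In that step 16.9% of all genes were called, 9.19% higher and 7.75% lower. Each of these 4 members had no overlap between the groups, and 12% of all genes had none. Arntl stood at −0.45 (adjusted p = 0.068), and at −0.54, past the threshold, without cold 1 day replicate 2. Clock, Per3, Cry2 and Nr1d2 had values between −0.39 and −0.17, with adjusted p of 0.11 or more. As 6 h and 1 day need not share a collection hour, time of day and duration cannot be told apart in this step.

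**Figure D3:**
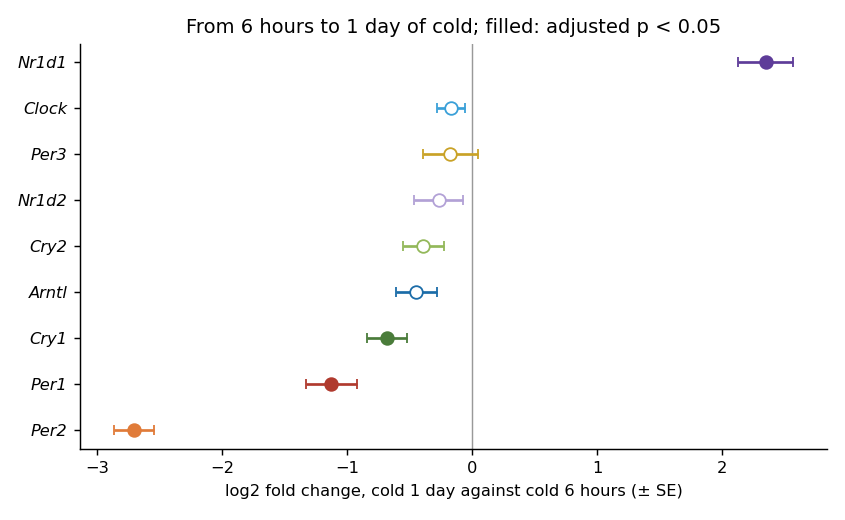
Log2 fold change of cold 1 day against cold 6 h (horizontal axis) for the 9 tested genes, with bars of ± 1 standard error. Filled points passed edgeR's adjusted p of 0.05. Nr1d1 lies at 2.35, Per2 at −2.71, Per1 at −1.13 and Cry1 at −0.68.

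After the first day, edgeR called 0 of the 9 tested members in each of the 4 further steps. The numbers with an unadjusted p under 0.05 were 2 from 1 to 2 days, 1 from 2 to 3 days, 1 from 3 to 4 days and 3 from 4 to 5 days. Of all genes, 1.27%, 0.142%, 0% and 0% were called in those steps. An unadjusted p under 0.05 was found for 1635 of 10274, 880 of 10530, 845 of 10843 and 742 of 10651 genes tested. DESeq2 called 0 members in these steps except that from 2 to 3 days, where it called 1. This was Per3, whose log2 fold change from 2 to 3 days was 1.02 (SE 0.21, adjusted p = 0.074 by edgeR). Its edgeR call was gained without cold 2 days replicate 1 (1.21) or cold 3 days replicate 2 (1.11), and Cry2 from 1 to 2 days, at −0.55, reached −0.86 and passed the threshold without cold 2 days replicate 1. From 4 to 5 days Per2 stood at −0.81 and Nr1d2 at −0.76, with adjusted p of 0.61 and 0.58. The F-test over 1 to 5 days called 4 of the 9 tested members (Arntl, Per2, Per3 and Nr1d2), beside 17.4% of all genes. Without cold 2 days replicate 1, Cry2 was called too (adjusted p = 0.011).

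Paralogs changed by different amounts, which was tested on the ratio of both genes within each mouse. The log2 ratio does not depend on how a library is scaled, apart from a prior count of 2. An exact two-sided permutation test of 5 against 5 mice has a smallest possible p of 0.00794, and p-values were adjusted over all 36 tests. In controls the log2 ratio of Cry1 to Cry2 was −1.15 ± 0.42 (SD, n = 5), and after 6 h it was 0.97 ± 0.49. All 5 mice were above all controls at each of the 6 durations, with differences between 1.33 after 4 days and 2.31 after 2 days (adjusted p = 0.0168 for each).

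The ratio of Nr1d1 to Nr1d2 changed direction between groups. It was 1.52 lower than in controls after 6 h on the log2 scale, from −0.30 ± 0.43 to −1.82 ± 0.46, with 5 of 5 mice below all controls (difference −1.52, exact permutation test, adjusted p = 0.0168). It was 0.96 higher after 1 day (adjusted p = 0.0649) and 0.98 higher after 5 days (adjusted p = 0.0286, with 4 of 5 mice above all controls). After 2, 3 and 4 days the differences were 0.46, 0.33 and 0.34, none past the threshold. Without control replicate 3, whose ratio was the highest of the controls, the differences after 1, 2 and 3 days became 1.13, 0.64 and 0.50 and passed it. The call after 5 days was lost in most tests that left out a mouse.

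Within the period genes, Per3 parted from both others. The ratio of Per2 to Per3 was higher than in controls at every duration, with 5 of 5 mice above all controls and differences from 3.87 after 6 h to 1.40 after 1 day (exact permutation test, adjusted p = 0.0168 for each). Per1 to Per3 was likewise higher at all 6 durations, from 3.69 after 6 h to 1.82 after 3 and 5 days, with 5 of 5 mice above all controls at 4 of the durations. Per1 to Per2 differed past the threshold after 1 day alone, by 1.27 (adjusted p = 0.0286, with 4 of 5 mice above all controls). This call, and those of Per1 to Per3 after 3 and 5 days, were lost in most tests that left out a mouse. For Clock and Npas2 none of the 6 differences passed the threshold (the smallest adjusted p = 0.0833), and with so few Npas2 reads their size depends on the prior count. Without control replicate 2, which held 3 of the 4 Npas2 counts of the controls, those after 1 day (−0.74) and 2 days (−0.95) passed it. With all mice and a prior count of 0.5, the same 2 differences were −1.57 and −1.82 and also passed (exact permutation test, adjusted p = 0.0497 for each).

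**Figure D4:**
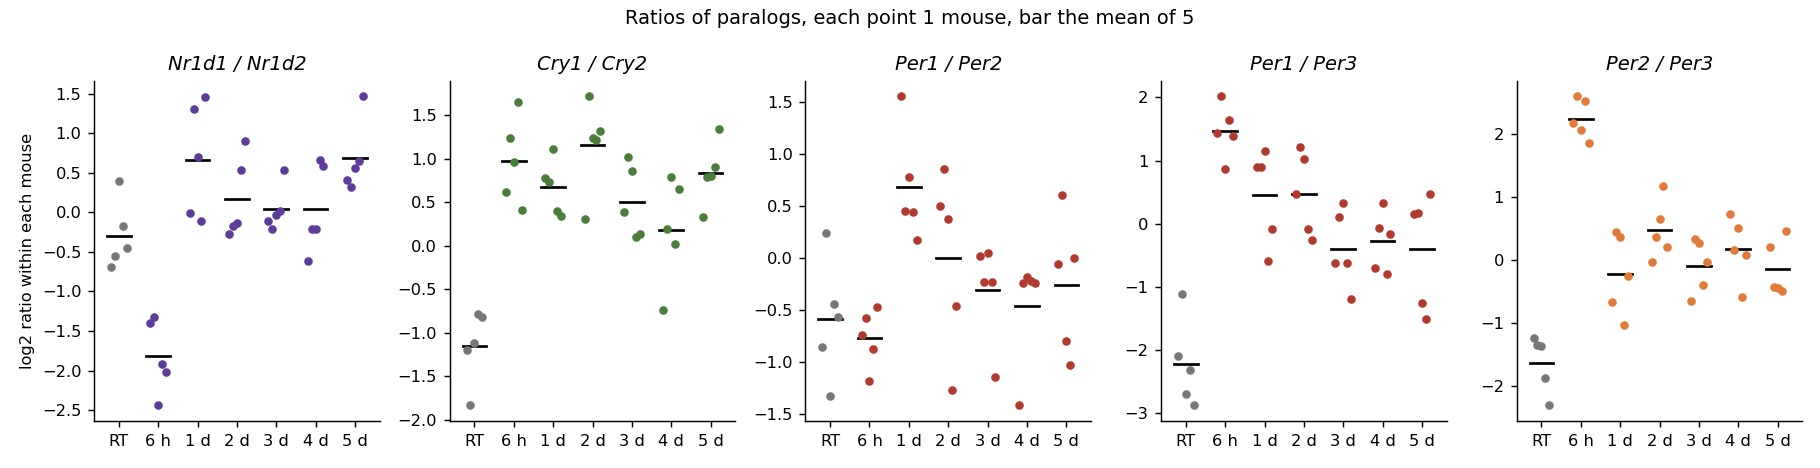
Log2 ratio of 5 pairs of paralogs within each mouse (vertical axes) in the 7 groups (RT, room temperature, then 6 h to 5 days of cold). Each point is 1 mouse and each bar the mean of 5. Cry1 to Cry2 and Per2 to Per3 lie above the controls in every cold group, and Nr1d1 to Nr1d2 is lowest after 6 h.

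Within groups, some members varied together with Arntl, but not in every setting. After the mean of each group was removed, 9 relations with Arntl were computed over the 35 mice, with 100000 permutations within groups. Nr1d2 was lower where Arntl was higher (Pearson r = −0.54, permutation p = 0.00245, adjusted p = 0.022; Spearman rho = −0.47, permutation p = 0.0102, adjusted p = 0.0458). When the 2 mice with the most extreme Arntl deviations were set aside, r was −0.50. Cry1 was higher where Arntl was higher (r = 0.43, permutation p = 0.0105, adjusted p = 0.0472; rho = 0.48, permutation p = 0.00972, adjusted p = 0.0458), and r was 0.44 without those 2 mice. Both relations fell short of the threshold with library size only (r = −0.39 and 0.40) and with the replicate number as a block (−0.45 and 0.45). Without the mice after 1 day, neither passed (−0.53 and 0.41), nor without those after 4 days (−0.48 and 0.33). Cry1 alone fell short without the mice after 6 h (0.40) or 2 days (0.42), and Nr1d2 alone without those after 3 days (−0.44). For Per3 r was −0.36 (permutation p = 0.0345, adjusted p = 0.104), with rho = −0.31 and r = −0.24 without the 2 farthest mice, and it passed the threshold without the controls (−0.53). The other 6 relations had r between −0.23 and 0.15, with permutation p of 0.27 or more. The hour at which single mice were collected is not given, and its part in these relations was not tested.

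**Figure D5:**
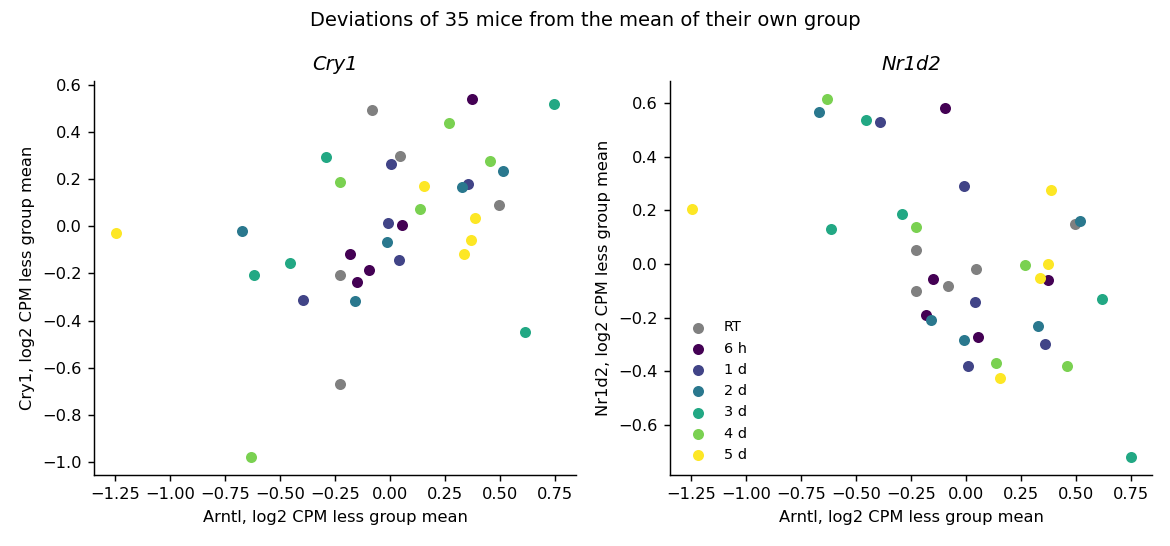
Deviation of each of 35 mice from the mean of its own group, in log2 CPM, for Arntl (horizontal axis) against Cry1 (left) and Nr1d2 (right). Colours mark the groups. The cloud rises for Cry1 (r = 0.43) and falls for Nr1d2 (r = −0.54).

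Over all 35 mice, group differences included, the 5 genes most like Arntl among 6171 with a mean of at least 50 counts were Gmpr, Cars2, Lpl (lipoprotein lipase), Cdkn1a (a cell cycle inhibitor) and Mfsd2a (a lysophospholipid transporter). Each had r of 0.90. Among the members Cry1 was most like Arntl (r = 0.83, rank 49) and Nr1d2 and Per3 least (both r = −0.76). For Nr1d1 the closest of 6170 genes were Txnrd3 (r = 0.89), Plxna1 (0.87), Vldlr (0.84), Fam53b (0.84) and Cgnl1 (0.84). These values describe patterns that rest largely on the 7 group means, and the points share the 35 libraries and their scaling.

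Other clock genes were taken from a list of 10 output and stabilizing factors. After 6 h 1 of 10 was higher and 5 lower, beside 21.5% and 21% of all genes, the median being −0.70 on the log2 scale against −0.03 over all genes, and after 5 days 1 was higher and 6 lower, beside 20.2% and 18.6% of all genes (median −1.69 against −0.02). Dbp, the D-box activator, fell from 76.8 ± 17.6 to 11.9 ± 3.44 CPM after 6 h (log2 fold change −2.71, SE 0.19, adjusted p = 6.2e-09 by edgeR) and by 3.15 after 5 days. Nfil3, which represses through the same element, rose by 2.47 after 6 h (adjusted p = 4.9e-08). Rorb, one of the ROR receptors, fell by 2.27 after 5 days from a low level of 3.85 ± 1.59 CPM.

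Another list held 12 genes that act on the stability of clock proteins. Of these, 10 were tested after 6 h, of which 5 were higher and 0 lower (median 0.35), beside 21.5% and 21% of all genes. After 5 days 11 were tested, of which 4 were higher and 2 lower (median 0.14), beside 20.2% and 18.6%. Usp2, a deubiquitinase, went from 75.3 ± 19 CPM in controls to 189 ± 15.9 after 6 h (log2 fold change 1.30, edgeR adjusted p = 2.2e-06) and fell by 0.65 after 5 days. Csnk1e, a kinase of PER proteins, rose by 0.47 after 6 h, and Btrc, part of the ubiquitin ligase that recognizes them, fell by 0.77 after 5 days.

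Both kinds of acute signal known to reach Per1 and Per2 have other target genes, and 2 lists of these were read out beside them. Of 10 glucocorticoid-responsive genes, 7 were higher and 0 lower after 6 h (median 0.69), and 5 were higher and 2 lower after 5 days (median 0.12). For both lists the shares of all genes were 21.5% higher and 21% lower after 6 h, and 20.2% and 18.6% after 5 days. Cdkn1a rose by 3.72 after 6 h and 2.37 after 5 days, and Dusp1, a phosphatase of MAP kinases, by 1.91 and 1.60. Of 8 tested CREB-responsive early genes, 7 were higher and 0 lower after 6 h (median 2.25), and 5 of 7 were higher after 5 days (median 0.49). Nr4a3, a nuclear receptor, rose by 4.94 after 6 h, and Ppargc1a, a coactivator of thermogenic genes, by 3.62 after 6 h and 1.97 after 5 days. Sik1, a kinase that restrains CREB signalling, rose by 1.72 after 5 days. In controls Nr4a3 stood at only 1.31 ± 1.55 CPM, so its fold is uncertain.

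Markers of cell types were read out beside the tissue label. All 13 brown adipocyte markers had counts, with a summed level of 13925 to 17627 CPM in controls and 21183 to 27391 CPM after 6 h. Markers of 9 other cell types (63 genes, none at 0 in the whole series) were also summed, so having counts does not by itself check the label. In 12 of the 60 comparisons of a list and a duration with controls, the 5 summed levels did not overlap those of the controls. The endothelial sum of 8 genes was 285 to 351 CPM in controls, 467 to 571 after 6 h, 558 to 651 after 1 day and 381 to 568 after 2 days. Such sums follow the most abundant genes, and single markers went both ways. After 6 h 2 of 8 endothelial markers were higher and 2 lower (median log2 fold change 0.24), beside 21.5% and 21% of all genes. Of the 13 brown adipocyte markers, 4 were higher and 2 lower then (median 0.0087). The brown adipocyte sum was above the controls after 6 h, 1 day and 5 days, the erythroid sum after 1 and 5 days, and the Schwann cell sum after 3 and 4 days. The Schwann cell sum rested mostly on S100b, with a mean of 151 CPM in controls. Of 4 tested Schwann cell markers, 1 was higher and 1 lower after 3 days (median log2 fold change −0.20), beside 18.3% and 15.5% of all genes. After 4 days 1 was higher and 0 lower (median −0.14), beside 19.4% and 18.6% of all genes. The T cell sum after 5 days and the stromal progenitor sum after 1 day were below them. That of the T cells was near the floor, at 0 to 0.65 CPM against 1.09 to 2.29 CPM in controls. Of the 5 T cell markers 0 could be tested, so this difference rests on a few reads. White adipocyte, skeletal muscle, macrophage and B cell sums overlapped the controls at every duration, but single markers in these lists were called. Of 9 tested macrophage markers, 5 were higher and 1 lower after 3 days, beside 18.3% and 15.5% of all genes. After 5 days, 5 of 10 skeletal muscle markers were lower (Myh2 by a log2 fold change of −2.50), beside 18.6% of all genes. In the same comparison Ighm of the B cell list was higher (1.36) and Lep of the white adipocyte list was lower (−3.44). Skeletal muscle sums ran from 3.1 to 1192 CPM between mice. What these shares contribute to the clock genes was not tested.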

How the data were processed

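Whole iBAT RNA of 35 mice was sequenced with the QuantSeq 3′ mRNA-Seq FWD kit. Per the labels, the authors aligned reads with STAR 2.6.1d to GRCm38 and counted genes with HTSeq 0.11.2, and deposited one table of raw counts, without normalization. Mitochondrial genes held 40.2% of counts and Gm42418 11.6%, and 267 identifiers had no symbol. Replicate numbers name different mice. No libraries were identical. Depth was 3846016 to 6047247 counts, so levels near 1 CPM rest on a few reads.

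From the counts, edgeR 4.0.16 in R 4.3.3 (TMM, filterByExpr, quasi-likelihood test, Benjamini-Hochberg adjustment over all genes tested) was run separately for each duration against controls, for successive durations, and as an F-test over 1 to 5 days. The SE given with an edgeR log2 fold change, also in the figures, is an approximation derived from the test. It is the absolute log2 fold change divided by the square root of the F statistic. Exact and permutation tests used log2 CPM with a prior count of 2 (Python 3.11.15, scipy 1.17.1). Gene positions came from GENCODE M21 and promoters from RefSeq. Alternatives were DESeq2 1.42.0, its size factors, library size only, no filter, libraries without mitochondrial genes and Gm42418, all 7 groups in 1 fit, a replicate block, prior count 0.5, a variance stabilizing transformation, and leaving out mice or groups. On simulated counts for 6 h against controls, edgeR with 10421 genes tested recovered 77 of 93 genes changed by 1 on the log2 scale and 92 of 93 changed by 2, with 7 false calls. Few genes were changed there, equally many up and down, while 42.5% of genes were called in the real comparison. The simulation therefore does not test scaling under so wide a change. The members, the other lists and the tests were chosen with earlier results of these data known. Named were all members, genes whose exons overlap them, the 5 genes most like Arntl and Nr1d1, and from each other clock or signalling list the 2 genes with the largest called change after 6 h and after 5 days. The single-cell and imaging data of the study were not analysed here.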

Additional observations from a re-analysis of the deposited data

Results flagged for a closer look

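Of the 70 sets of 5 mice (10 genes in 7 groups), 9 held a mouse whose gap to its nearest neighbour was more than 0.71 of the whole range, and chance alone gives about 1 such set in 20. The only low value was Arntl after 5 days, where replicate 4 stood at 1.96 CPM and the next mouse at 5.83. After 6 h, replicate 3 was highest for Npas2 (0.894 CPM, next 0.232), Per3 (15.4, next 11.2) and Nr1d2 (29.7, next 18.9), replicate 2 for Per1 (39.7, next 31.2) and replicate 4 for Cry1 (44.6, next 30.7). Replicate 1 after 2 days was highest for Cry2 (13.5 CPM, next 7.88), replicate 1 after 4 days for Npas2 (0.910, next 0.181) and replicate 3 after 4 days for Per1 (17.4, next 10.1).

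In 8 cases durations of cold differed from each other by edgeR's own test of that difference. From 6 h to 1 day the log2 fold change was 2.35 for Nr1d1, −2.71 for Per2, −1.13 for Per1 and −0.68 for Cry1. Over 1 to 5 days the F-test gave an adjusted p of 0.0017 for Per3, 0.0044 for Per2, 0.0063 for Arntl and 0.031 for Nr1d2.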

How the results depend on the processing

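Numbers of members called stayed within 1.5 times of the reported ones except as follows. With library size only, 1 member in place of 2 was higher after 4 days. From 2 to 3 days 1 was higher with no filter and 1 with DESeq2, and from 4 to 5 days 2 were lower with no filter, each in place of 0. Leaving out a mouse gave 1 to 3 members higher after 4 days (1 without control replicate 4 or 5), 0 to 1 lower from 1 to 2 days and 0 to 1 higher from 2 to 3 days. Correlations with Arntl past the threshold numbered 2, but 0 with library size only, 0 without the mice after 1 day or 4 days, and 1 without those after 6 h, 2 days or 3 days. Besides the calls named with each gene, library size only added calls for Nr1d1 after 1 and 4 days, Per1 after 4 days, Per2 after 3 days and Arntl from 6 h to 1 day. Without a filter, calls were added for Nr1d1 after 1 and 4 days, for Per1 and Cry1 after 4 days, and for Per1 and Nr1d1 in the F-test. All 7 groups in 1 fit added Nr1d1 after 1 day and Clock after 3 days.

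Signs turned for 10 values among the 820 that were recomputed for single genes, ratios or correlations under other settings. With library size only, the log2 fold change was 0.012 for Cry1 from 2 to 3 days, and −0.043 for Arntl and −0.019 for Clock from 4 to 5 days. The correlation of Arntl with Clock was −0.039 with library size only and −0.059 without the mice after 5 days, with Per1 −0.021 without those after 5 days, and with Npas2 0.0018 without those after 4 days. With a prior count of 0.5, the Clock to Npas2 ratio after 3 days was −0.21. Leaving out single mice gave Per1 −0.26 to 0.11 after 1 day, −0.28 to 0.022 after 2 days and −0.25 to 0.11 after 3 days against controls. From 1 to 2 days it gave Clock −0.062 to 0.012, Per1 −0.22 to 0.15, Per3 −0.30 to 0.087 and Nr1d2 −0.0056 to 0.33. From 2 to 3 days it gave Per1 −0.12 to 0.26 and Cry1 −0.21 to 0.032, and from 4 to 5 days Arntl −0.11 to 0.25 and Nr1d1 −0.17 to 0.017. The Per1 to Per2 ratio ran from −0.37 to 0.027 after 6 h and from −0.054 to 0.37 after 4 days, and Clock to Npas2 from −0.095 to 0.29 after 3 days. The cause was not tested. Called ratios with an adjusted p of 0.0286 or more were lost for 7 to 9 of 10 mice left out, where 4 against 5 mice allow no p below 0.0159.

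Over all genes passing the filter, same-numbered mice did not deviate together. Correlations lay between −0.24 and 0.20, with all 5 pairs above 0.1 in 0 of 11 comparisons. Such correlations cannot decide this for single genes. Per1 replicate 4 lay below its group mean after 1 to 5 days (log2 −0.39, −0.63, −0.35, −0.26 and −0.74). Its replicate 5 lay below after 1 to 4 days (−0.80, −0.78, −0.68 and −0.20) and above after 5 days (0.58). Nr1d1 replicate 5 lay above its group mean at each whole-day duration (0.16 to 0.64). The cause was not tested. With the replicate number as a block, Nr1d1 after 1 day passed the threshold (log2 fold change −0.55), 5 members in place of 4 were lower there, and 0 correlations with Arntl passed (Nr1d2 −0.45, Cry1 0.45), with signs turned for Clock (−0.0081) and Per2 (0.010). The block changed no other call.

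Depth limits Npas2, and the low Arntl level in controls, most.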
